A study of Mus musculus with 7 samples.

Results

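Galectins are secreted and cytosolic proteins that bind galactose-containing sugars on glycoproteins. They cross-link receptors on the cell surface and, inside the cell, mark damaged endosomes and lysosomes. In lymphatic endothelium, the cells that line lymphatic vessels, galectin 8 is known for binding podoplanin, a mucin-like membrane protein that is a standard lymphatic marker, and galectins 1, 3 and 9 are known in tumours for acting on T cells and on vessels. The genes described here are 4 galectin genes (Lgals1, Lgals3, Lgals8 and Lgals9), the galectin 3 binding protein gene Lgals3bp and the podoplanin gene Pdpn. They were taken by symbol as 6 of the 26583 genes in the count table, and all 6 were among the 13453 genes abundant enough to be tested.

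Expression was measured by RNA sequencing of lymphatic endothelial cells from the mouse ear pinna. The tumour group held 4 libraries from BPC melanomas of mice that carried BrafCA/+ and were Cre+, from 2 males (replicates 1 and 2) and 2 females (replicates 3 and 4). The naive group held 3 libraries from skin of mice that carried BrafCA/+ and were Cre-: replicate 1 pooled both sexes, replicate 2 was female and also pooled mice that were Braf+/+ and Cre+, and replicate 3 was male. The promoter that drives Cre, its induction, the age of the mice, the way the cells were isolated and the number of mice behind a library are not stated in the labels. A p-value here sets the difference between the groups only against the spread between libraries within a group, which may be partly technical. The question the comparison addresses, as the labels state it, is how lymphatic endothelial cells of a melanoma differ in expression from those of naive skin.

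Libraries held 52940832 to 63032175 counts. Values below are CPM, which are counts scaled to a library total of 1000000,, unless they are said to be per kilobase of exon, and a count of 3 corresponded to 0.0479 to 0.0521 CPM. Of 15 genes listed as lymphatic markers, all tested, 1 passed the test in edgeR, Sox18, which rose, beside 1.7% of all tested genes. DESeq2 called 4 of them, 3 higher and 1 lower, in a test that called 10.9% of its genes. Tumour libraries were all above naive ones for 3 of the 15, Sox18, Lyve1 and Nrp2, beside 9.57% of tested genes. They were all below for 1, Emcn, beside 8.46% of tested genes. Emcn was at 98.8 ± 27.15 CPM in tumour and 199 ± 31.5 CPM in naive libraries (log2 -1.01, edgeR adjusted p = 0.0673). The marker Prox1 was at 484 ± 131 CPM in tumour and 662 ± 125 CPM in naive libraries and Lyve1 at 2591 ± 442 and 1950 ± 132 CPM in tumour and naive libraries (SD, n = 4 and 3). Summed over the list, the lymphatic markers were at 20409, 20444, 20912 and 15869 CPM in tumour replicates 1 to 4. In naive libraries they were at 19115 to 22993 CPM. Tumour replicates 1 to 3 thus lay within the naive range, and tumour replicate 4 lay under it. The list also holds general endothelial genes such as Pecam1, Cdh5, Tie1 and Emcn. Its sum therefore cannot tell lymphatic from other endothelium. Tumour replicate 4 also held the highest fibroblast, myeloid and melanocyte sums. Markers of other cell types moved with the group: the summed level of 12 fibroblast markers was 1800 to 18579 CPM in tumour and 634 to 1219 CPM in naive libraries, that of 12 myeloid markers 273 to 552 CPM and 88.2 to 122 CPM, and that of 10 melanocyte markers 11.3 to 122 CPM and 1.63 to 4.49 CPM. In bulk libraries fewer cells of a type and less RNA per cell cannot be told apart. Sequencing lane, as read from a tag in the sample descriptions, also followed the group, with tumour replicates 1, 2 and 4 on lane 6, naive replicates 1 and 2 on lane 7, and tumour replicate 3 and naive replicate 3 on lane 8. Lanes 6 and 7 therefore cannot be told apart from the groups.

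Of the 6 genes, none passed the test between the groups (edgeR's quasi-likelihood test, Benjamini-Hochberg adjusted p under 0.05 over all 13453 genes), where 229 genes, or 1.7% of those tested, passed. By direction, 121 genes (0.899%) were higher and 108 (0.803%) lower, and scaling by upper-quartile factors gave 156 higher and 92 lower. At an unadjusted p under 0.05 there were 2 of the 6 genes, Lgals1 and Lgals3bp, beside 2278, or 16.9%, of all genes. These 2 were also the members whose tumour libraries were all above all naive libraries, a pattern that 9.57% of tested genes showed in that direction and 8.46% in the other. DESeq2 called the same 2 genes, in a test that called 10.9% of its genes, while limma-voom called none of the 6. All 6 fitted changes were positive, with a median log2 fold change of 0.27, beside 0.04 over all tested genes.

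**Figure D1:**
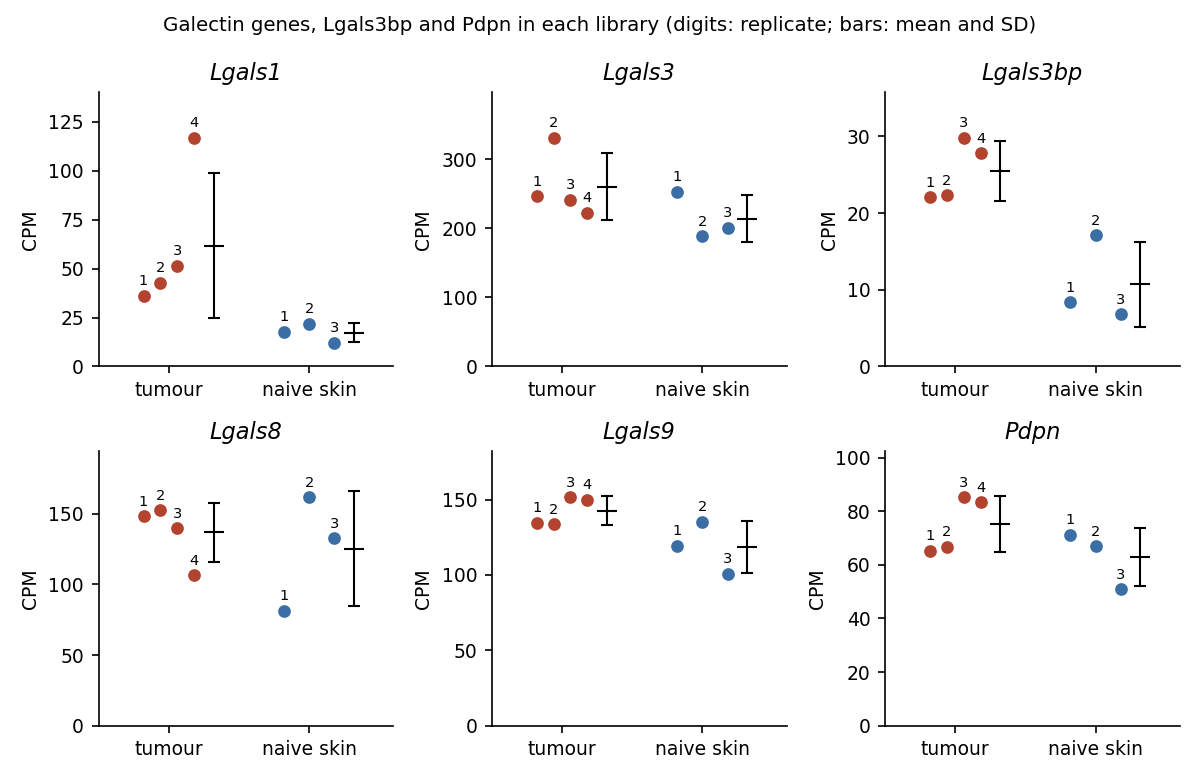
Level in CPM of each of the 6 genes in every library, tumour left and naive skin right, with points for libraries and bars for the mean and SD. Lgals1 and Lgals3bp show groups that do not overlap, and the 117 CPM of Lgals1 in tumour replicate 4 stands above the other 3 tumour libraries.

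Lgals1 encodes galectin 1, a small homodimeric galectin that stromal and endothelial cells secrete and that is known to act on T cells and on vessel growth. The gene lies at chr15:78926725-78930465 on the plus strand (GRCm38, GENCODE M21). Its level was 36.1, 42.7, 51.5 and 117 CPM in tumour replicates 1 to 4, against 17.8, 21.9 and 12.1 CPM in naive replicates 1 to 3. Behind these stood 2181 to 6995 counts in tumour and 699 to 1262 counts in naive libraries. Every tumour library was above every naive library, and tumour replicate 4 was 2.27 times the next tumour library. The mean was 61.8 ± 37.3 CPM in tumour and 17.3 ± 4.94 CPM in naive libraries (SD, n = 4 and 3). The fitted fold change was 3.58 (95% interval 1.76 to 7.24; log2 1.84, SE 0.45), and the gene missed the threshold (edgeR adjusted p = 0.0852, rank 454 of all genes by p). Over the alternatives to this test the adjusted p ranged between 0.000958 (DESeq2) and 0.575 (lane as a term). With a stricter filter of 5 CPM in 3 libraries, where 3.51% of genes passed, the adjusted p of Lgals1 in edgeR was 0.0489. Without tumour replicate 4 the log2 fold change was 1.33. Within lane 8, tumour replicate 3 stood at log2 2.09 over naive replicate 3. The annotation names 2 Lgals1 pseudogenes, and how the counting treated reads shared with them is not stated.

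The fibroblast markers, like Lgals1, were highest in tumour replicate 4 and next highest in tumour replicate 3, but among naive libraries they were highest in replicate 3, where Lgals1 was lowest. Their summed level was 2863, 1800, 6211 and 18579 CPM in tumour replicates 1 to 4 and 634, 634 and 1219 CPM in naive replicates 1 to 3, and 11 of the 12 were highest in tumour replicate 4. Of these 12, Pdgfra and Mfap5 passed the test and rose, and 10 did not pass, beside 1.7% of all tested genes that passed. Pdgfra was at 26 ± 23.6 CPM in tumour against 0.0634 ± 0.0266 CPM in naive libraries. No marker of the list was at 0 in all naive libraries. Lgals1 is expressed by fibroblasts as well as by endothelium, and the part of the fibroblast signal in its level was not tested. Other settings were looked at for this list after seeing the data. In edgeR 1 of 12 passed without tumour replicate 4 and 0 of 12 without any 1 naive library, where 8 and 9 had an unadjusted p under 0.05. None passed in limma-voom or with the replicate block, lane or sex as a term. Over all genes, 102 of 13018 passed without tumour replicate 4 and 7 to 33 without 1 naive library. In limma-voom 269 of 13453 passed, with the replicate block 3, with sex as a term 12 and with lane none. Fits with added terms or without a naive library passed so few genes that they cannot tell whether these markers are unstable. DESeq2 called 9 of the 12, beside 10.9% of its genes.

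**Figure D2:**
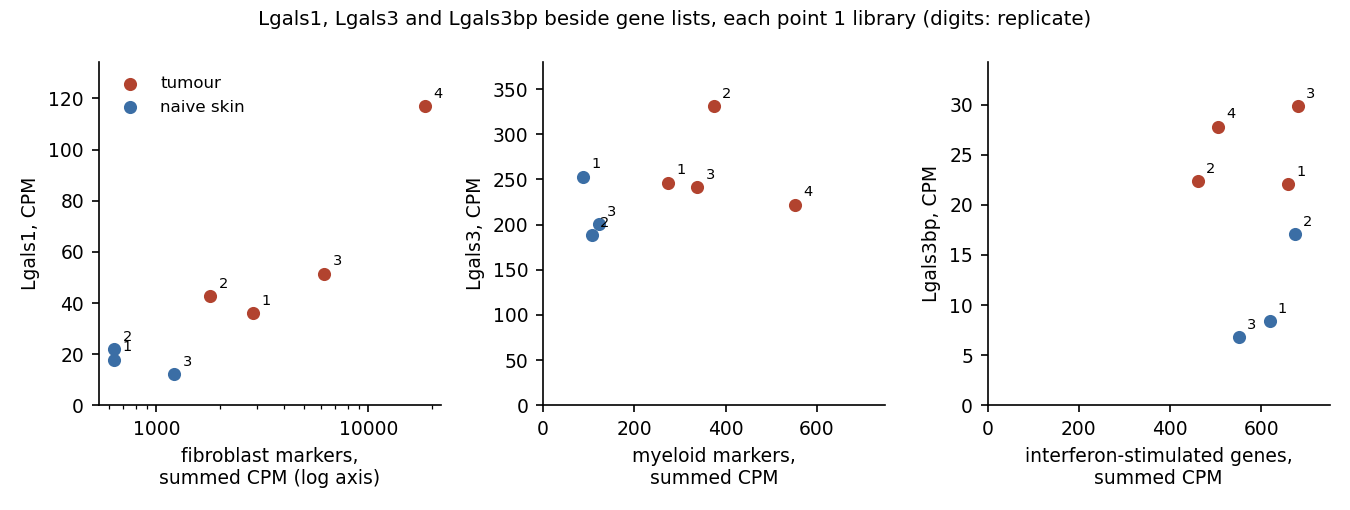
Level of Lgals1, Lgals3 and Lgals3bp in CPM (vertical) against the summed CPM of fibroblast markers (log axis), myeloid markers and interferon-stimulated genes (horizontal), one point per library with its replicate number. Lgals1 and the fibroblast sum were both highest in tumour replicate 4, whereas Lgals3 was highest in tumour replicate 2 and the myeloid sum in tumour replicate 4.

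Lgals3 encodes galectin 3, the chimeric galectin with a collagen-like tail that lets it form oligomers, and which macrophages and many epithelia also make in quantity. It lies at chr14:47367751-47386160 on the plus strand. The level was 246, 331, 241 and 222 CPM in tumour replicates 1 to 4, against 253, 188 and 201 CPM in naive replicates 1 to 3. The groups overlapped, since naive replicate 1 was above 3 of the 4 tumour libraries. Means were 260 ± 48.3 CPM in tumour and 214 ± 34.3 CPM in naive libraries, and the fold change of 1.22 had a 95% interval of 0.921 to 1.61 (edgeR adjusted p = 0.491). Of 9 myeloid markers tested, 4 passed and rose (Emr1, Lyz2, C1qc and Mrc1), beside 1.7% of all tested genes that passed. The macrophage mannose receptor gene Mrc1 was at 167 ± 36.5 CPM in tumour and 64.0 ± 11.7 CPM in naive libraries. Mrc1 ran apart from the other 8 tested, which were all highest in tumour replicate 4. It was highest in tumour replicate 3, at 220 CPM, where C1qc was lowest among tumour libraries at 11.7 CPM. In naive libraries Mrc1 held 50.9 to 73.2 CPM of the summed myeloid level of 88.2 to 122 CPM. In tumour libraries Mrc1 was at 140 to 220 CPM, beside a summed myeloid level of 273 to 552 CPM. Lymphatic endothelium is also known to express Mrc1, and the cell type behind its level was not tested. Emr1, which encodes the macrophage antigen F4/80, Itgam and Ptprc had no counts in any naive library. Other markers of the list were present there, Cd68 at 18 ± 3.25 CPM and Mrc1 at the level given above. The part of the myeloid signal in the level of Lgals3, in either group, was not tested.

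Lgals3bp encodes a secreted scavenger-receptor-domain glycoprotein that binds galectins 1 and 3 and is known as an interferon-inducible gene. It lies at chr11:118392751-118402092 on the minus strand. Its level was 22, 22.3, 29.8 and 27.8 CPM in tumour replicates 1 to 4, against 8.37, 17.1 and 6.78 CPM in naive replicates 1 to 3. The 4 tumour libraries lay close together, with the highest 1.35 times the lowest, and above all naive libraries, of which replicate 2 was closest. Means were 25.5 ± 3.91 CPM in tumour and 10.7 ± 5.54 CPM in naive libraries. The fold change was 2.37 (95% interval 1.31 to 4.29; log2 1.25, SE 0.38), with an edgeR adjusted p of 0.142. DESeq2 gave an adjusted p of 0.0228, and over the other alternatives it reached up to 0.50. Without naive replicate 2 the log2 fold change was 1.75, and within lane 8 it was 2.14.

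No interferon-stimulated gene passed the test. Of 17 tested, none was called by edgeR and 2 had an unadjusted p under 0.05, beside 16.9% of all tested genes. DESeq2 called 1 of the 17, lower in tumour, beside 10.9% of its genes. The median log2 fold change of the 17 was 0.30, beside 0.04 over all genes. The summed level of the list was 461 to 680 CPM in tumour and 550 to 673 CPM in naive libraries. Irf1, an interferon-induced transcription factor, was at 130 ± 13.0 CPM in tumour and 208 ± 37.2 CPM in naive libraries with no overlap (log2 -0.67, edgeR adjusted p = 0.0746). Irf9, part of the complex that carries the type I interferon signal to DNA, was at 70.3 ± 19.0 CPM in tumour and 80.2 ± 11.0 CPM in naive libraries. Irf1 and Irf9 had lower means in tumour, whereas 11 of the 17 were higher by sign. Besides Irf1, the gene with an unadjusted p under 0.05 was Usp18, singled out after its values were seen. It was at 24.8 ± 12.3 CPM in tumour and 8.77 ± 5.87 CPM in naive libraries, with overlap (log2 1.5, edgeR adjusted p = 0.217).

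Lgals9 encodes galectin 9, a tandem-repeat galectin with a carbohydrate-binding domain at each end, also known to be induced by interferon. It lies at chr11:78962974-78984946 on the minus strand. Its level was 135, 134, 152 and 150 CPM in tumour replicates 1 to 4, against 120, 135 and 101 CPM in naive replicates 1 to 3. The tumour libraries were within 1.14 times of each other, and only naive replicate 2 reached into their range. Means were 143 ± 9.71 CPM in tumour and 119 ± 17.2 CPM in naive libraries, with a fold change of 1.2 (95% interval 0.956 to 1.51; edgeR adjusted p = 0.418). Across the 7 libraries the log2 levels of Lgals3bp and Lgals9 ran closest together of all pairs of members, with r = 0.95, a description over libraries that share the group difference and sequencing depth. For this reason their sequence before the RefSeq gene start is shown (GRCm38.p6, minus strand, 5′ to 3′), with matches to the interferon regulatory factor core AANNGAAA, on either strand, in capitals. The Lgals9 stretch is chr11:78984925-78985064 and the Lgals3bp stretch, which is shorter, chr11:118401960-118401989:
Lgals9: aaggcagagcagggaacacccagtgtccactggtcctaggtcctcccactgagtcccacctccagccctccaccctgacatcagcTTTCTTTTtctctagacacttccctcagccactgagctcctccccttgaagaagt
Lgals3bp: tcatgtgttttctgaaAATCGAAActaggt
The gene positions given above are from GENCODE, which starts both genes further upstream than RefSeq. By those positions the Lgals3bp stretch lies wholly within its gene and the Lgals9 stretch partly within its own. RefSeq promoter windows of 300 bases were at hand for 5 of the 6 genes, all but Lgals1. Those of Lgals3 and Lgals8 also lie within the GENCODE genes. The core occurred in 2 of these 5 and in 23.9% of 32851 promoters. The longer interferon response core GAAANNGAA, which overlaps it, occurred in 1 of the 5 (Lgals9) and in 8.56% of promoters. The STAT core TTCNNNGAA occurred in none of the 5 and in 8.3% of promoters. The motifs were chosen after the data were seen, and a match is a description of letters, not of a bound site.

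Lgals8 encodes galectin 8, the tandem-repeat galectin that binds podoplanin and, inside cells, exposed sugars on damaged endosomes. It lies at chr13:12439415-12464944 on the minus strand. Of its 3688 bases of exon, 155 overlap exons of Heatr1 on the other strand, and there these unstranded libraries cannot separate the genes. The level of Lgals8 was 148, 152, 140 and 107 CPM in tumour replicates 1 to 4, against 81.4, 162 and 133 CPM in naive replicates 1 to 3. Both the lowest and the highest library were naive, so the tumour range lay within the naive one. Heatr1 itself was at 15.0 to 37.5 CPM in tumour and 22.1 to 46.4 CPM in naive libraries. Means of Lgals8 were 137 ± 20.8 CPM in tumour and 125 ± 40.7 CPM in naive libraries, with a fold change of 1.09 (95% interval 0.749 to 1.59; edgeR adjusted p = 0.863). The direction was not stable, since the log2 change of 0.13 became -0.11 without naive replicate 1 and -0.12 with sex as a term.

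Pdpn, at chr4:143267431-143299564 on the minus strand, was at 65.3, 66.8, 85.3 and 83.4 CPM in tumour replicates 1 to 4, against 71.2, 66.9 and 50.8 CPM in naive replicates 1 to 3. Tumour replicates 3 and 4 were above all naive libraries and tumour replicates 1 and 2 were within the naive range. Means were 75.2 ± 10.6 CPM in tumour and 63 ± 10.7 CPM in naive libraries, with a fold change of 1.19 (95% interval 0.886 to 1.61; edgeR adjusted p = 0.579). Per kilobase of exon, the ratio of Lgals8 to Pdpn was 1.12, 1.12, 0.807 and 0.630 in tumour replicates 1 to 4, against 0.563, 1.19 and 1.29 in naive replicates 1 to 3. It averaged 0.920 ± 0.244 in tumour and 1.01 ± 0.393 in naive libraries, and the tumour range lay within the naive one. Over the 7 libraries the log2 levels of Lgals8 and Pdpn had r = -0.24, the lowest of the 15 pairs among the 6 genes.

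**Figure D3:**
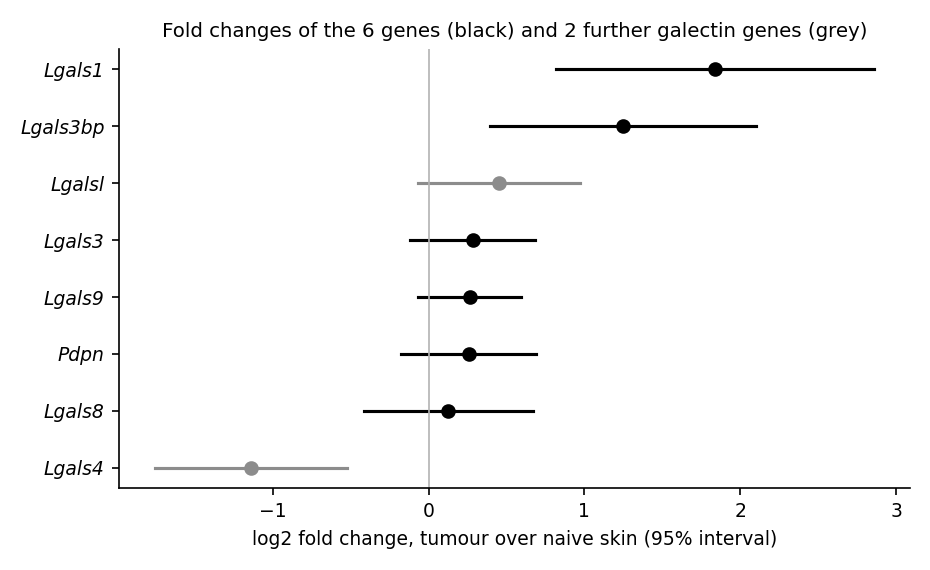
Log2 fold change, tumour minus naive skin, of the 6 genes and of Lgals4 and Lgalsl, with the 95% interval of the edgeR fit; 0 marks equal levels. Among the 6 genes, the intervals of Lgals1 and Lgals3bp lie above 0 before any adjustment over genes, and those of Lgals3, Lgals8, Lgals9 and Pdpn include 0.

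Per kilobase of exon, on which levels of different genes can be compared, Lgals3 was the most abundant of the 6 in both groups, at 140 ± 26 CPM per kilobase in tumour and 115 ± 18.5 in naive libraries. Its mean was above those of 98.4% in tumour and 97.6% in naive libraries of the 11924 tested genes with an exon length. In tumour libraries Lgals1 (68.4 ± 41.3), Lgals9 (66.7 ± 4.54), Pdpn (41.4 ± 5.83), Lgals8 (37.1 ± 5.64) and Lgals3bp (8.96 ± 1.37 CPM per kilobase) followed. There the ranges of Lgals3 and Lgals1, of Lgals1 and Lgals9, and of Pdpn and Lgals8 overlapped, so these neighbours were not separated beyond their spread. In naive libraries the order after Lgals3 was Lgals9 (55.5 ± 8.04), Pdpn (34.7 ± 5.91), Lgals8 (34.0 ± 11.0), Lgals1 (19.1 ± 5.47) and Lgals3bp (3.77 ± 1.95 CPM per kilobase), with Pdpn and Lgals8, and Lgals8 and Lgals1, overlapping. The place of Lgals1 ahead of Lgals9 in tumour libraries rested on replicate 4, with 129 CPM per kilobase of Lgals1 and 70.2 of Lgals9. In tumour replicates 1 to 3 Lgals1 was at 40.0, 47.3 and 57.0 and Lgals9 at 63.1, 62.5 and 71.0 CPM per kilobase. Lgals3bp, the lowest in both, was above 64.0% of these genes in tumour and 44.6% in naive libraries.

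Expressed as a share of the summed galectin level per kilobase in each library, Lgals1 made up 14.2, 14.1, 18.9 and 36.5% in tumour replicates 1 to 4, against 8.02, 10 and 6.07% in naive replicates 1 to 3. These shares did not overlap. Lgals3 made up 47.0, 53.3, 43.0 and 33.7% in tumour replicates 1 to 4, against 55.3, 41.9 and 48.9% in naive replicates 1 to 3, and was the leading galectin in every library but tumour replicate 4, where Lgals1 led. Lgals9 stayed between 18.7 and 23.5% in tumour and between 21.4 and 26.2% in naive libraries. The summed galectin level itself was 282, 334, 302 and 355 CPM per kilobase in tumour replicates 1 to 4, against 246, 242 and 221 in naive replicates 1 to 3, again without overlap. Lgals1 is part of this sum, so its lack of overlap is not separate from that of Lgals1. Of the sum, Lgals1 supplied 40.0, 47.3, 57.0 and 129 CPM per kilobase in tumour replicates 1 to 4. It supplied 19.8, 24.3 and 13.4 CPM per kilobase in naive replicates 1 to 3.

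**Figure D4:**
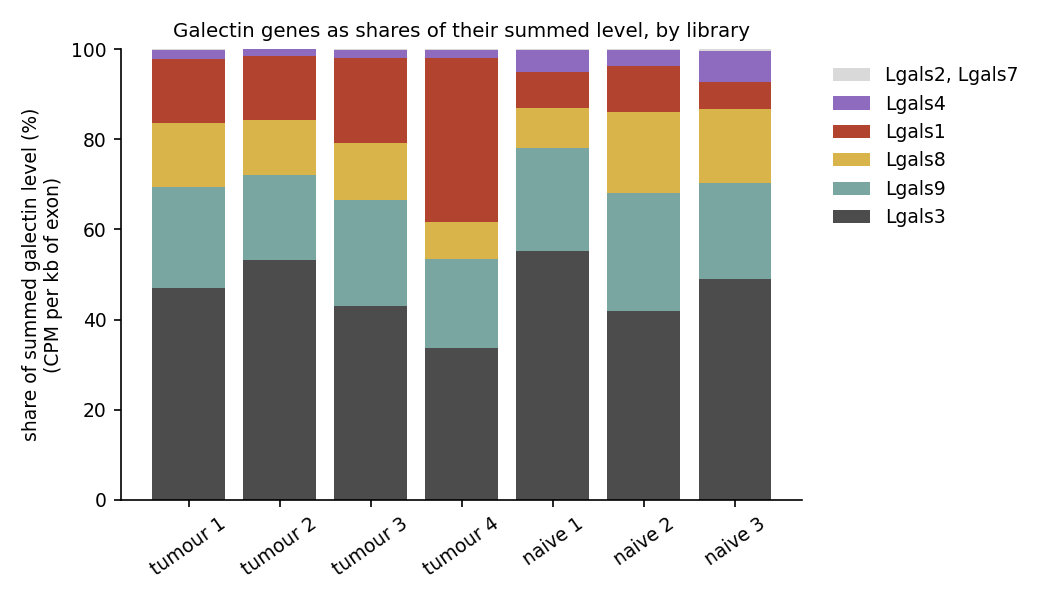
Share of each galectin gene in the summed galectin level (CPM per kilobase, percent) in each library, tumour left and naive skin right. Lgals3 takes the widest band in every library but tumour replicate 4, where Lgals1 takes 36.5%.

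Among the other galectin genes, Lgals4, known as a galectin of the gut epithelium, had the only pattern lower in tumour without overlap. It was at 12.9, 11.6, 12.7 and 13.1 CPM in tumour replicates 1 to 4, against 27.1, 20.7 and 35.3 CPM in naive replicates 1 to 3. Means were 12.6 ± 0.665 CPM in tumour and 27.7 ± 7.28 CPM in naive libraries (log2 -1.14, SE 0.27), and it missed the edgeR threshold (adjusted p = 0.0788) but not that of DESeq2 (adjusted p = 0.00193). Some mouse strains carry a near-identical copy of Lgals4, Lgals6, which is not analysed here, so the value of Lgals4 is uncertain. The galectin-like gene Lgalsl, listed under an older name, was at 26.7 ± 2.26 CPM in tumour and 19.5 ± 2.33 CPM in naive libraries without overlap (log2 0.45, edgeR adjusted p = 0.372). Lgals7, the galectin of stratified epithelium, was at 0.440 ± 0.356 CPM in tumour and 0.253 ± 0.219 CPM in naive libraries. Lgals2, a small galectin of the gut, was too low to test, with 11, 0, 0 and 0 counts in tumour replicates 1 to 4 and 5, 9 and 15 counts in naive replicates 1 to 3. Lgals12 and Grifin had no counts in any library, which allows up to 3 counts in each.

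Of 24 genes for glycoproteins known to bind galectins, 20 were tested, and 1 passed in edgeR, Nrp1, which rose. Over all tested genes 1.7% passed. Nrp1 encodes neuropilin 1, a co-receptor for VEGF and semaphorins that binds galectin 1. It was at 30.4, 31.3, 24.6 and 28.5 CPM in tumour replicates 1 to 4, against 0.0172, 0.0174 and 0.0519 CPM, or 1, 1 and 3 counts, in naive replicates 1 to 3 (edgeR adjusted p = 0.000322). Every tumour library thus held the transcript and no naive library exceeded the level of 3 counts. The list had a median log2 fold change of 0.35 and 8 members at an unadjusted p under 0.05 (16.9% of all tested genes were). DESeq2 called 6 (5 higher and 1 lower), beside 10.9% of its genes. Tumour libraries were all above naive ones for 6 of the 20, beside 9.57% of all tested genes, and these 6, singled out after their values were seen, were Nrp1, Itgb1, Cd44, Fn1, Lamp1 and Lamp2. Itgb1, the beta subunit of integrins that bind galectins 1, 3 and 8, was at 1083 ± 106 CPM in tumour and 744 ± 113 CPM in naive libraries (log2 0.54, edgeR adjusted p = 0.103). Fn1, the fibronectin gene, which fibroblasts express strongly, was at 473 ± 263 CPM in tumour and 150 ± 23.6 CPM in naive libraries (log2 1.65, edgeR adjusted p = 0.0693). Without tumour replicate 4, a library left out after seeing the data, 2 of 18 receptor genes passed, both higher. Without any other library 1 or 2 passed. Over all genes, 102 of 13018 passed without tumour replicate 4 and 7 to 171 without any other library.

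Galectin ligands are built by glycosyltransferases, and none of those tested passed in edgeR. Of 17 enzymes and transporters for N-glycan branching, none passed, and the median log2 fold change was 0.06. An unadjusted p under 0.05 was seen for 6, beside 16.9% of all tested genes. DESeq2 called 3, beside 10.9% of its genes. The most abundant, Mgat4b, a branching N-acetylglucosaminyltransferase, was at 563 ± 38.6 CPM in tumour and 525 ± 46.9 CPM in naive libraries. B3gnt2, which extends the poly-N-acetyllactosamine chains that galectins bind, was at 372 ± 38.2 CPM in tumour and 278 ± 17.3 CPM in naive libraries without overlap (log2 0.42, edgeR adjusted p = 0.139). None of 10 enzymes of mucin-type O-glycans, the sugars that podoplanin carries, passed in edgeR or DESeq2, and none had an unadjusted p under 0.05 in edgeR (median log2 fold change 0.31). Galnt1, which starts such chains, was at 657 ± 117 CPM in tumour and 609 ± 81.8 CPM in naive libraries, and its relative Galnt2 was at 153 ± 26.4 and 132 ± 41.1 CPM in tumour and naive libraries.

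Sialyltransferases cap galactose, and the cap that St6gal1 adds is known to block galectin 1. None of 10 tested passed in edgeR, 2 had an unadjusted p under 0.05 and DESeq2 called 1 (median log2 fold change 0.58). Over all genes the unadjusted share was 16.9% and that of DESeq2 10.9%. St3gal4 was at 94.3 ± 20.5 CPM in tumour and 127 ± 21.3 CPM in naive libraries, and St3gal6 at 101 ± 31.6 CPM in tumour and 118 ± 4.88 CPM in naive libraries. St6gal1, singled out after its values were seen, ranged between 1.38 and 24.6 CPM in tumour and between 0 and 0.104 CPM in naive libraries (edgeR adjusted p = 0.0718).

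Of 12 tested partners and regulators of podoplanin, 1 passed in edgeR, Sox18, a transcription factor of early lymphatic specification, which rose to 137, 143, 125 and 131 CPM in tumour replicates 1 to 4, against 78.7, 79.8 and 54.2 CPM in naive replicates 1 to 3 (log2 0.92, SE 0.17, edgeR adjusted p = 0.0412). The groups did not overlap. In the main fit 1.7% of all tested genes passed. The call of Sox18 was lost without any 1 of the 7 libraries, and with the replicate block, lane or sex as a term. These settings were all looked at after seeing the data. Over all genes, 7 to 171 passed without 1 library, 3 with the replicate block, 12 with sex as a term and none with lane. The loss therefore cannot be read as particular to Sox18. Without tumour replicate 4, 0 of 11 partners passed in edgeR, beside 102 of 13018 genes, and 2 of the 11 had an unadjusted p under 0.05. In the fit of all libraries, 5 of the 12 had an unadjusted p under 0.05, beside 16.9% of all tested genes. DESeq2 called 2, beside 10.9% of its genes, and the median log2 fold change was -0.03. Msn, which encodes the linker of podoplanin to actin, was at 1550 ± 265 CPM in tumour and 1556 ± 124 CPM in naive libraries. Ccl21a, a chemokine that podoplanin binds, was at 1616 ± 487 CPM in tumour and 1351 ± 99.8 CPM in naive libraries. Clec1b, the platelet receptor for podoplanin, had no counts in any naive library and 0 to 0.836 CPM in tumour libraries.

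Galectins 3, 8 and 9 also serve in the response to damaged lysosomes. None of 14 tested genes of that response passed in edgeR or DESeq2, and the median log2 fold change was -0.23. An unadjusted p under 0.05 was seen for 1, beside 16.9% of all tested genes. The autophagy receptor gene Sqstm1 was at 1780 ± 482 CPM in tumour and 2222 ± 290 CPM in naive libraries, and Map1lc3b, for a protein of the autophagosome membrane, at 544 ± 51.6 CPM in tumour and 617 ± 18.8 CPM in naive libraries. Of the remaining marker lists, 2 of 6 melanocyte markers passed and rose, beside 1.7% of all tested genes that passed. Dct rose to 3.46, 23.6, 13.7 and 49.4 CPM in tumour replicates 1 to 4 and Sox10 to between 0.902 and 12.8 CPM. Naive libraries held at most 0.0859 CPM of Dct and 0.0172 CPM of Sox10. None of 9 keratinocyte markers passed in edgeR, although 3 had an unadjusted p under 0.05 and DESeq2 called 3. Over all genes these shares were 16.9% and 10.9%. Krt14 was at 28.1 ± 11.8 CPM in tumour and 13.3 ± 10.6 CPM in naive libraries, and Krt10 at 23.9 ± 24.1 CPM in tumour and 3.17 ± 4.29 CPM in naive libraries. Both overlapped between the groups. Tumour libraries were all above naive ones for 3 of the 9, Krt79, Sfn and Dsp, beside 9.57% of all tested genes. Krt79, singled out after its values were seen, was at 12.3 ± 5.70 CPM in tumour and 1.81 ± 0.297 CPM in naive libraries (log2 2.77, edgeR adjusted p = 0.0515). The melanocyte markers Mlana and Pax3 had no counts in any naive library, and Slc45a2 had none in any tumour library. Summed, the keratinocyte markers were at 45.8 to 161 CPM in tumour and 8.58 to 67.2 CPM in naive libraries. Leaving out libraries was looked at for these lists after seeing the data. Without tumour replicate 4, 2 of 9 myeloid and 0 of 4 melanocyte markers passed in edgeR, with 7 and 2 of them at an unadjusted p under 0.05. Without any 1 naive library, 0 of 9 myeloid and 0 of 6 melanocyte markers passed, with 7 to 8 and 3 of them at an unadjusted p under 0.05, and none passed with the replicate block, lane or sex as a term. Over all genes, 102 of 13018 passed without tumour replicate 4 and 7 to 33 without 1 naive library. With the replicate block 3 passed, with sex as a term 12 and with lane none. Fits that passed so few genes cannot tell whether these markers are unstable. DESeq2 called 8 of 9 myeloid and 4 of 6 melanocyte markers, beside 10.9% of its genes. The part of melanocyte and keratinocyte RNA in the galectin levels was not tested.

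The genes whose log2 level over the 7 libraries was most like that of a member were sought among 7222 genes. Those most like Lgals1 were Htra1, for a secreted serine protease, and Cd81, for a tetraspanin (r = 0.99 for both). Htra1 was at 49.3 ± 49.2 CPM in tumour and 3.67 ± 2.14 CPM in naive libraries (edgeR adjusted p = 0.0740). Those most like Lgals3bp included Med9, a Mediator subunit (r = 0.99). For Lgals9 they were Tmem147 and Tmbim6, membrane proteins of the endoplasmic reticulum (r = 0.99 and 0.98), for Lgals8 Ccdc22 and Agpat6 (r = 0.98 for both), for Pdpn Capns1, the small calpain subunit (r = 0.98), and Prdx5, a peroxiredoxin (r = 0.97), and for Lgals3 Bre (r = 0.98) and the proteasome ubiquitin receptor gene Adrm1 (r = 0.97). With 7 libraries that share the group difference, and 7222 genes to choose from, these are descriptions only.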

How the data were processed

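The labels' protocols name the Qiagen RNeasy Micro kit for RNA and Takara SMART-Seq v4, an unstranded low-input method, for libraries. Trimmomatic 0.38 and build mm10 are named in the submitters' processing notes. The aligner, counter and annotation were not given in the sources used here. Raw counts per gene and normalized values on a log2 scale were what the authors deposited. How the log2 values were normalized is not stated, and they served in 1 alternative. The 25 rows whose symbol had become a date (0.174% to 0.236% of counts) were left out. Counts were tested with edgeR 4.0.16 (R 4.3.3; TMM factors, filterByExpr, robust quasi-likelihood fit, group as the only term) over 13453 genes. Adjusted p is Benjamini-Hochberg over all of them. The script was tested on simulated counts. Alternatives used DESeq2 1.42.0, limma 3.58.1, other scalings, filters and terms, and each library left out. CPM used the TMM-scaled library totals, and log2 CPM for likeness a prior count of 2. Exon lengths and positions came from GENCODE M21 (GRCm38), promoters from RefSeq GRCm38.p6. Intervals are 95% and of the fit.

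Text names all 6 members. From each gene list it names genes past the threshold, at most the 4 with the smallest p, or, with none, the 2 most abundant, and for likeness up to 2 genes per member with mean log2 CPM of at least 4. Genes outside this rule (such as Prox1, Lyve1, Nrp2, Emcn, Heatr1, Msn, Ccl21a, Clec1b, Itgb1, Fn1, St6gal1, Usp18, Krt79, Sfn and Dsp) were added after their values were seen. Members and lists were chosen with earlier results of these data known. One allele of the genotype labels, which all groups share, and 1 gene most like Lgals3bp are not reported here.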

Additional observations from a re-analysis of the deposited data

Results flagged for a closer look

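Lgals8 was the only one of the 6 genes whose change ran in opposite directions in the sexes, with no test of that difference. In males, tumour replicates 1 and 2 stood at log2 0.16 and 0.20 over naive replicate 3, and in females tumour replicates 3 and 4 at log2 -0.21 and -0.60 over naive replicate 2. Each sex had 1 naive library for this comparison, in which Lgals8 was at 133 CPM (male) and 162 CPM (female).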

How the results depend on the processing

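Lgals1, Lgals3, Lgals3bp, Lgals9 and Pdpn kept a positive log2 fold change under all 18 alternatives, with ranges of 1.33 to 2.09, 0.15 to 0.42, 0.93 to 2.14, 0.16 to 0.59 and 0.13 to 0.75. Leaving out 1 library at a time gave 1.33 to 2.04, 0.15 to 0.42, 1.0 to 1.75, 0.16 to 0.37 and 0.13 to 0.35 for the same genes. Lgals8 ranged between -0.12 and 0.35, and reversed with sex as a term (-0.12) and without naive replicate 1 (-0.11; 0.35 at the other end of the left-out libraries). Lgals1 passed the threshold with DESeq2 (1.85) and with the stricter filter (1.86), where fewer genes were tested, and Lgals3bp passed with DESeq2 (1.26). Counts of genes past the threshold depended on the setting. DESeq2 gave 949 higher and 567 lower, the stricter filter 190 and 169, the deposited log2 values 192 and 164, and limma-voom 99 and 170, more lower than higher. With sex as a term 6 and 6 passed, and with lane as a term 0 and 0 (1169 genes at an unadjusted p under 0.05), since that fit draws its contrast from lane 8 alone. With the replicate block, 3 and 0 passed (1562 at an unadjusted p under 0.05), and Lgals1 was at 1.35. No pairing by number was seen. Deviations of same-numbered libraries had correlations of -0.00641, -0.0367 and -0.0207, and no naive library was most like the tumour library of its own number. Between any naive and any tumour library the correlation lay between -0.0725 and 0.0522, so these values cannot exclude a pairing. Leaving out 1 library gave 6 to 105 higher and 1 to 88 lower, lowest without naive replicate 1. Other causes were not tested. The intervals of Lgals3, Lgals8, Lgals9 and Pdpn included 0 with 4 tumour and 3 naive libraries.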
